A study of Mus musculus with 9 samples.

Results

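Interferon-stimulated genes were compared between hepatocellular carcinomas of a genetically modified mouse and normal mouse liver. The set held 33 named genes, and 31 of them were read by a probe set that named only that gene, out of 18193 genes read in this way. Ifi44 and Isg15 were the 2 others and were not analysed here. The genes were picked by name, with earlier results of these data known. The 5 tumours came from livers of mice that the titles call triple knockout, with the listed genotype RbΔ/Δ; p130Δ/Δ; p107+/-. Ad-Cre, a virus that delivers Cre recombinase, had been injected into the spleen of those mice 4 months before dissection. The 4 controls were tumour-free livers of adult wild-type mice, and no label gives them the virus, which means that the groups differed in genotype, virus and tumour at once. Strain, sex, age in weeks and whether each sample is a different animal are not stated here, and p-values therefore describe only how these 9 samples spread, which may be technical.

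Interferons are secreted proteins that warn cells of infection. Type I interferons bind the receptor made of Ifnar1 and Ifnar2, and interferon-gamma binds Ifngr1 with Ifngr2. Both activate STAT factors, which enter the nucleus and switch on target genes. With Irf9, STAT proteins bind the interferon-stimulated response element (ISRE) in promoters of antiviral genes, while STAT dimers bind the gamma-activated site (GAS). The products degrade or trap viral RNA, tag proteins, feed peptides to MHC class I molecules and, in the case of Usp18, damp the signal again.

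Promoter sequence is shown for 4 members that stand for different patterns in the data. Oas1a was higher in every tumour than in every liver, Ifit1 was high in 1 tumour, Irgm1 was below every liver in 4 of 5 tumours without passing the test, and Psmb8 belongs to antigen processing. Each line runs 5′ to 3′ on the strand of the gene, from 250 bases before the start of the gene to 50 bases after it, from RefSeq on GRCm38.p6. Capitals mark 2 motifs, searched on both strands: the ISRE core, which is GAAA, any 2 bases and GAAA again, and the GAS core, which is TTC, any 3 bases and GAA.
Oas1a, chr5:120907476-120907775, minus strand: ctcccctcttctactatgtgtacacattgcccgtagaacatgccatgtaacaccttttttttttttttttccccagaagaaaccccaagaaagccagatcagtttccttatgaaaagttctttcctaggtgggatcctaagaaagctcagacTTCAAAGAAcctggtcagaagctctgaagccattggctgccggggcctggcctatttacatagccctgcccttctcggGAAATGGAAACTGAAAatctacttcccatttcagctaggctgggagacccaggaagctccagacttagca
Ifit1, chr19:34640639-34640938, plus strand: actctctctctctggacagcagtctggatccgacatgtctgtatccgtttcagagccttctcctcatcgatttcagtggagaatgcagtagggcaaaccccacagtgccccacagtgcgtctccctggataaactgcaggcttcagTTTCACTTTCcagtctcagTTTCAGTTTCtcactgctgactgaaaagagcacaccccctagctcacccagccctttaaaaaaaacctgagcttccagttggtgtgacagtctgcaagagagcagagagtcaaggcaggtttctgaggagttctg
Irgm1, chr11:48871371-48871670, minus strand: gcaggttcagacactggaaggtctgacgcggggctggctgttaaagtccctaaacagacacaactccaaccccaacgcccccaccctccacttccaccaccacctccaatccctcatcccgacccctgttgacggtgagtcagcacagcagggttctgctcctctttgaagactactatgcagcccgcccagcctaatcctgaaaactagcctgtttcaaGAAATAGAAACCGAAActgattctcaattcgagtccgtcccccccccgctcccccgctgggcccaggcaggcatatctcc
Psmb8, chr17:34197945-34198244, plus strand: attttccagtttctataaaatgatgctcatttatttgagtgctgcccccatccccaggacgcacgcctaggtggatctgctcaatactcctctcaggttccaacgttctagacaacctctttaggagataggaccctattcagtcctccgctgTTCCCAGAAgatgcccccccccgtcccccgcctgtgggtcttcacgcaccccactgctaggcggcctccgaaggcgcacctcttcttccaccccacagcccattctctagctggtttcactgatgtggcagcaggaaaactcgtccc

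In Oas1a and in Irgm1 the capital run near the start of the gene holds 2 overlapping ISRE cores, and in Ifit1 the 2 cores lie apart. The RefSeq table held a window for 27 of the 33 genes, 25 of them measured. Of those 25, 14 had an ISRE core in at least 1 window, against 3.99% of 27025 genes with a window of 300 bases. The GAS core was found in 7 of the 25, against 9.55% of genes, and overlapped an ISRE core only in Bst2. Set beside the calls described next, the ISRE core was present in 2 of 6 members that passed the test and had a window, Oas1a and Trim30a, and in 12 of 19 that did not pass. The GAS core was present in 3 of the 6, Oas1a, Ifit2 and Psmb8, and in 4 of the 19. Neither split was tested. Such a match is a description of letters, not a measured binding site.

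Array medians were 6.22 to 6.27 and single values 3.13 to 15.55 on the log2 scale. The quantile normalisation of RMA makes the medians nearly equal, so they do not show whether the arrays were even before it. The bacterial TrpnX control, which has no mouse target, read 3.69 to 4.36. Of the targeted genes, Rbl2 (p130) ranged from 6.77 to 8.43 in tumours against 9.44 to 10.02 in livers, while Rb1 ranged from 8.76 to 9.38 against 7.69 to 8.33 and Rbl1 (p107) from 4.63 to 4.82 against 4.23 to 5.83. Which exons were deleted is not stated here, and a probe set outside them checks nothing about the genotype. Xist, the X-inactivation RNA of female cells, was 6.34 to 6.66 in tumours 1 and 2 and liver 4 and 12.7 to 13.6 on the other 6 arrays. Of 7 hepatocyte markers, Apoc3 fell by 0.45 (limma adjusted p = 0.0102) and the other 6 did not pass, with Alb at 15.21 to 15.55 on all 9 arrays and group means of Hnf4a of 12.7 and 12.5. Of 2 controls of RNA quality, 1 differed between the groups. Actb had a log2 ratio of 3' to 5' signal of 0.61 ± 0.08 (SD) over 5 tumours, against 0.96 ± 0.04 (SD) over 4 livers (two-sided exact permutation p = 0.00794, the smallest the design allows, and 0.0159 adjusted over 2 controls). For Gapdh the ratio went the other way, at -0.21 in tumours and -0.28 in livers (two-sided exact permutation p = 0.0635), and did not pass. The part of RNA quality in the results on interferon-stimulated genes was not tested.

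The tumours did not show a common rise or fall of the whole set. With limma, 8 of 31 members passed an adjusted p of 0.05, all higher in the tumours, where 33.5% of all genes passed, 16.1% higher and 17.4% lower. The median log2 difference of the members was 0.23, against -0.08 for all genes. Of the 23 members that did not pass, 12 had a positive and 11 a negative difference. All 5 tumours lay above all 4 livers for 3 members, where 14% of all genes did so, and no member had all tumours below all livers, where 15.9% did, or 29.8% in either direction. The members' share of calls in either direction, 25.8%, was thus not above the 33.5% of all genes. For higher calls alone it was 25.8% against 16.1%, and this difference was not tested. In bulk tissue, fewer cells of a type and less RNA per cell cannot be told apart.

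**Figure D1:**
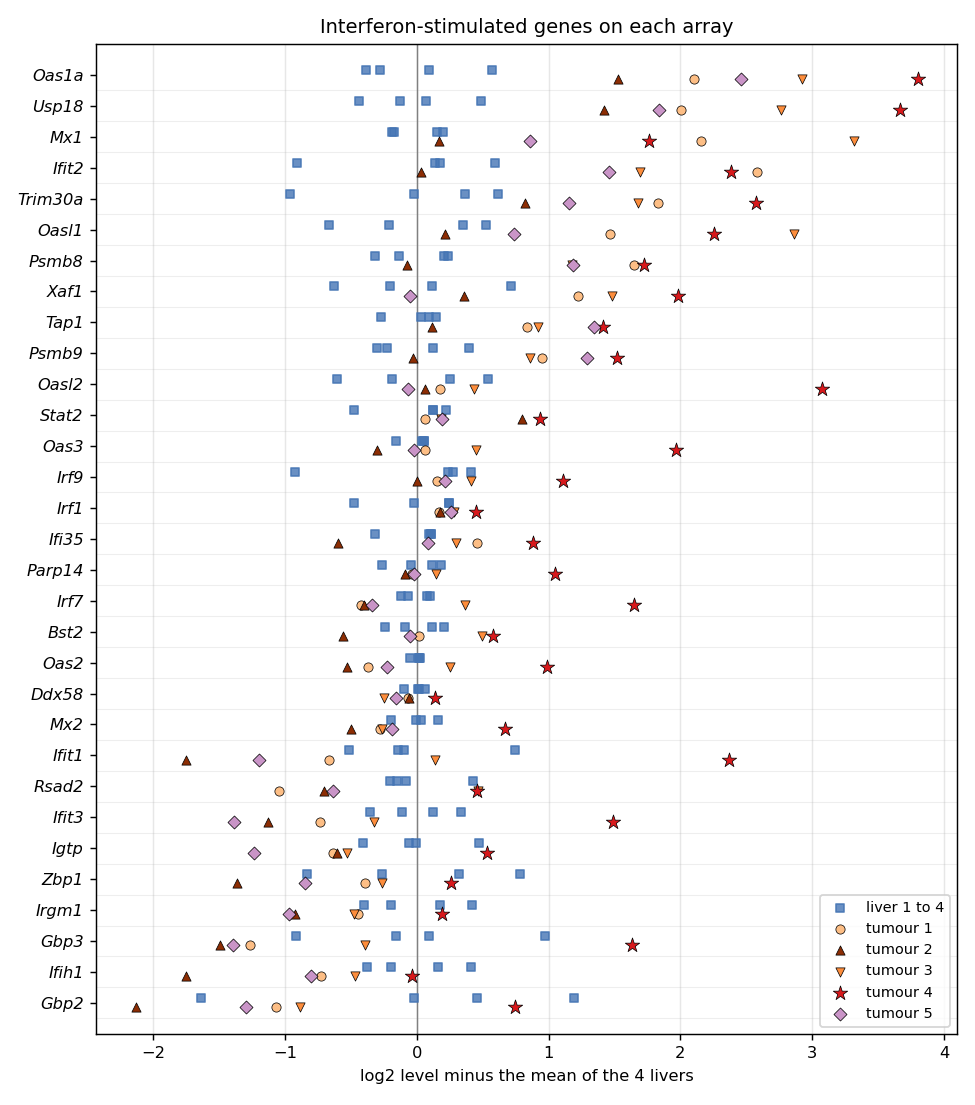
Level of each of the 31 interferon-stimulated genes on each array, as log2 level minus the mean of the 4 livers (x axis), with genes on the y axis ordered by their mean difference. Squares are livers and the other symbols are the 5 tumours. All tumours lie right of all livers for Oas1a, Usp18 and Trim30a, and tumour 4 (stars) is the highest tumour for 27 of the 31 genes.

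The clearest increases were those of Oas1a and Usp18. Oas1a makes the short oligoadenylates that switch on the RNA-degrading enzyme RNase L. It read 10.22, 9.64, 11.04, 11.92 and 10.57 in tumours 1 to 5 and 8.21, 7.84, 8.69 and 7.73 in livers 1 to 4. No tumour overlapped with a liver, and the difference was 2.56 log2 units (SE 0.42, limma adjusted p = 0.00185), or 5.91-fold. Usp18, which removes ISG15 from proteins and blocks the type I receptor, read 9.76, 9.18, 10.52, 11.42 and 9.60 in tumours. In livers it read 7.63, 7.83, 8.25 and 7.33, again with no overlap. Its difference was 2.34 (SE 0.42, limma adjusted p = 0.00308), or 5.06-fold. Tumour 4 was the highest and tumour 2 the lowest tumour for both genes.

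The 4 other OAS family genes of the set did not pass. Outside the set, Oas1c, named after its values were seen, rose by 0.78 (SE 0.16, limma adjusted p = 0.00668). Oas2 read 7.35, 7.19, 7.98, 8.71 and 7.5 in tumours and 7.67 to 7.75 in livers. Tumours 3 and 4 stood above every liver and the other 3 tumours below every liver, so that the mean difference was 0.02 (95% interval -0.60 to 0.65). Oas3 was 8.04 in tumour 4 and 5.77 to 6.53 in the other tumours, against 5.92 to 6.13 in livers. Oasl2 was 8.74 in tumour 4 and 5.60 to 6.10 in the other tumours, against 5.06 to 6.2 in livers. For both genes tumour 4 alone was well above the livers, and neither passed. Oasl1, an inhibitor of Irf7 translation in mouse, read 8.67, 7.42, 10.07, 9.46 and 7.94 in tumours and 7.55, 7.0, 7.73 and 6.54 in livers. Tumour 2 overlapped with the livers, and the difference of 1.51 (SE 0.52) narrowly missed the threshold (limma adjusted p = 0.0526; without tumour 2 it was 1.83 with 0.0155).

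The IFIT genes, whose products bind foreign RNA ends, split as well. They lie close together on chromosome 19. Ifit2 read 9.23, 6.68, 8.34, 9.03 and 8.11 in tumours and 6.82, 6.78, 7.24 and 5.74 in livers. Tumour 2 lay among the livers and the other 4 tumours above them, with a difference of 1.63 (SE 0.51, limma adjusted p = 0.0366). Ifit1 read 6.29, 5.21, 7.10, 9.32 and 5.76 in tumours and 6.82, 6.86, 7.71 and 6.45 in livers. It was above the livers in tumour 4 and below all of them in tumours 1, 2 and 5, with a mean difference of -0.22 (95% interval -1.89 to 1.45). Ifit3 read 7.81, 7.41, 8.22, 10.03 and 7.15 in tumours and 8.67, 8.43, 8.88 and 8.19 in livers, the same pattern, with tumour 3 inside the liver range. Without tumour 4 its difference was -0.89 and passed (limma adjusted p = 0.0249), against -0.42 with all arrays.

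Intact Mx genes encode GTPases that trap viral particles, and RefSeq lists both mouse genes as transcribed pseudogenes in the reference genome. Mx1 read 7.29, 5.31, 8.45, 6.90 and 5.999 in tumours and 4.97, 5.29, 4.95 and 5.34 in livers. Tumour 2 lay inside the liver range and tumour 3 was the highest, unlike for most members. The difference was 1.65 (SE 0.54, limma adjusted p = 0.0435). Mx2, on the same chromosome, was 8.35 in tumour 4 and 7.19 to 7.5 in the other tumours, against 7.49 to 7.85 in livers. Its mean difference was -0.11 (95% interval -0.60 to 0.37).

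Members of antigen processing moved together in 4 of the tumours. Psmb8 and Psmb9 are catalytic subunits of the immunoproteasome, which cuts proteins into peptides, and Tap1 is part of the pump that carries these peptides to MHC class I molecules. The 3 genes are neighbours on chromosome 17. Psmb8 read 11.85, 10.14, 11.39, 11.93 and 11.40 in tumours and 10.08, 10.45, 10.42 and 9.90 in livers. The difference was 1.13 (SE 0.34, limma adjusted p = 0.0302). Psmb9 read 10.09, 9.11, 10.001, 10.66 and 10.43 in tumours and 8.92, 9.27, 9.54 and 8.84 in the livers, which differed by 0.92 (SE 0.30, limma adjusted p = 0.0401). Tap1 read 8.76, 8.04, 8.85, 9.34 and 9.27 in tumours and 7.95, 8.01, 8.07 and 7.66 in the 4 livers, which differed by 0.93 (SE 0.25, limma adjusted p = 0.0193). For each of them tumour 2 lay inside the liver range and the other 4 tumours above it. A second Tap1 probe set also passed at 0.74, while 2 others with group means of 3.76 to 4.42, about the range of the TrpnX control, read -0.17 and -0.19 and did not pass. The mean of its probe sets gave 0.33, which passed.

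Among other effectors, Trim30a, a regulator of inflammatory signalling, read 9.34, 8.33, 9.19, 10.09 and 8.66 in tumours and 8.12, 6.55, 7.87 and 7.49 in livers. The groups did not overlap, the difference was 1.61 (SE 0.40, limma adjusted p = 0.0143), and its other probe set gave 1.55. Xaf1, which promotes cell death, read 10.35, 9.48, 10.61, 11.11 and 9.08 in tumours and 8.92, 9.24, 9.84 and 8.5 in livers. Tumours 2 and 5 overlapped with the livers, and its difference of 1.00 (SE 0.43) did not pass (limma adjusted p = 0.101). Rsad2 (viperin, which makes a chain-terminating nucleotide), Bst2 (tetherin, which holds virions at the cell surface), Ifi35 and Parp14 differed by -0.29 to 0.23 and did not pass.

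The GTPases best known as interferon-gamma targets, which attack the vacuoles of intracellular parasites, had negative differences. Gbp2, whose probe set may also read related genes, read 7.30, 6.24, 7.48, 9.11 and 7.07 in tumours and 8.35, 8.83, 9.56 and 6.73 in livers. Both groups spread widely and overlapped, with a difference of -0.93 (95% interval -2.41 to 0.55). Gbp3 read 6.44, 6.21, 7.31, 9.34 and 6.31 in tumours and 7.55, 7.79, 8.68 and 6.79 in livers. Tumour 4 was above every liver and tumours 1, 2 and 5 below every liver. Igtp differed by -0.49 and Irgm1 by -0.52, and for each of these 4 of 5 tumours lay below all livers. None of the 4 GTPase genes passed with all arrays as deposited, and Irgm1 passed with arrays centred on the 75th percentile (-0.70, limma adjusted p = 0.0447). Without tumour 4, Igtp (-0.75, limma adjusted p = 0.0304) and Irgm1 (-0.70, limma adjusted p = 0.0329) did, and Gbp2 (-1.34) and Gbp3 (-1.13) did not. With arrays centred on housekeeping genes Igtp and Irgm1 differed by 0.07 and 0.04, so the sign of these 2 depended on the scaling.

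Sensors of foreign nucleic acid were not raised on average. Ifih1 (MDA5), which detects long double-stranded RNA, read 9.70, 8.68, 9.96, 10.39 and 9.62 in tumours and 10.05, 10.59, 10.84 and 10.23 in livers. Every tumour but tumour 4 was below all livers, and the difference of -0.76 (SE 0.32) did not pass (limma adjusted p = 0.0925; without tumour 4 it was -0.94 with 0.0387). Ddx58 (RIG-I) differed by -0.08 (95% interval -0.28 to 0.12) and Zbp1, a sensor of Z-form nucleic acid, by -0.52 (95% interval -1.39 to 0.35). Among the transcription factors, Irf7, which drives the second wave of type I interferon, was 9.55 in tumour 4, 8.27 in tumour 3 and 7.48 to 7.56 in the other tumours. The livers read 7.78 to 8.002, so that 3 tumours were below and 2 above every liver. Stat2, Irf1 and Irf9 differed by 0.44, 0.27 and 0.38 without passing.

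**Figure D2:**
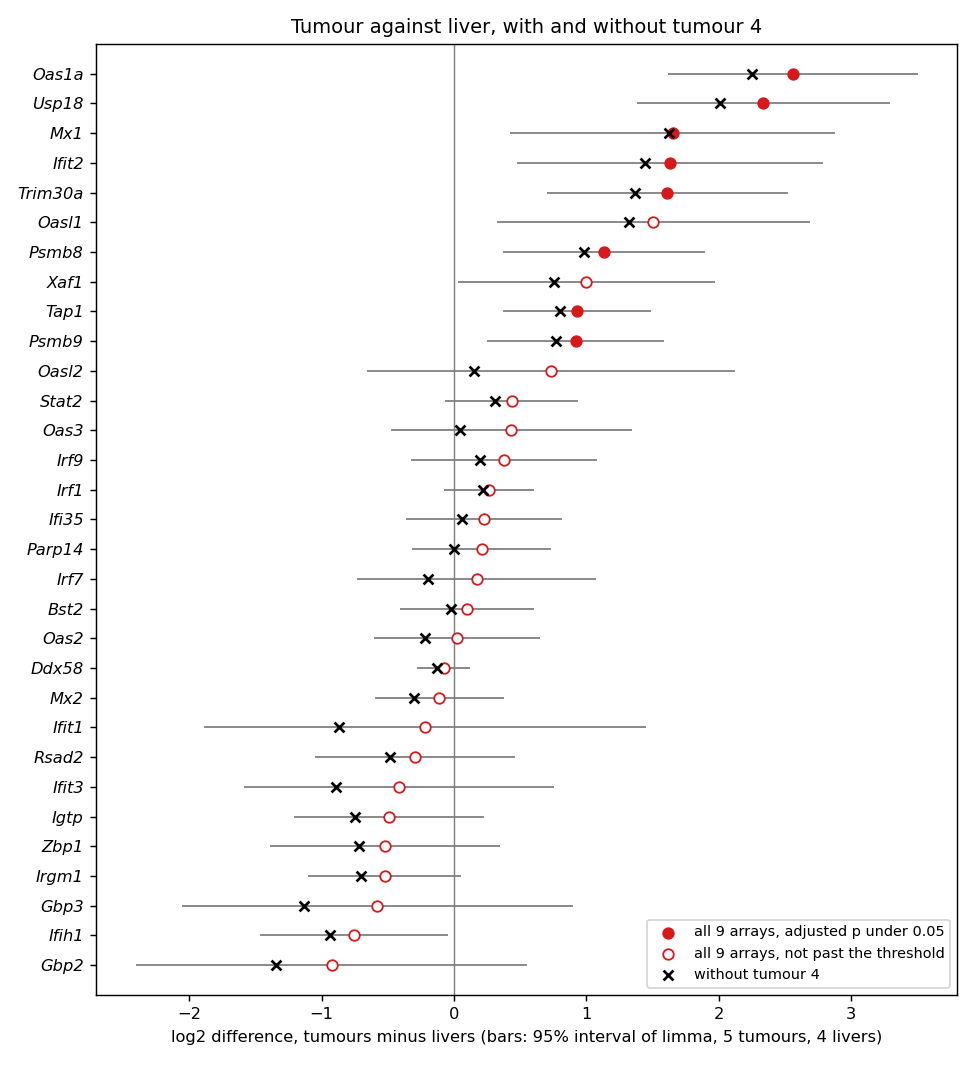
Mean log2 difference, tumours minus livers, for each gene (circles; filled where the adjusted p is under 0.05) with its 95% interval over 5 tumours and 4 livers, and the same difference without tumour 4 (crosses). The crosses of Ifit1 (-0.87) and Gbp3 (-1.13) lie far left of their circles, while that of Mx1 (1.63) stays beside it.

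The members varied together across the tumours. For each member the deviation of a tumour from the mean of the 5 tumours was taken. Its median over the members was 0.78 in tumour 4, 0.07 in tumour 3, -0.14 in tumour 1, -0.33 in tumour 5 and -0.73 in tumour 2. Over all genes these medians lay between -0.003 and 0.01, a range that the normalisation keeps narrow. Tumour 4 was above the tumour mean for 31 of 31 members and the highest tumour for 27, where it was the highest for 22.5% of all genes. Tumour 2 was the lowest for 21 members, where it was the lowest for 24.5% of all genes. Correlations were not computed, since 5 tumours are too few. The median SD of a member among tumours was 0.67, against 0.19 for all genes. Among livers it was 0.34, against 0.16 for all genes, so the members spread more there too. The SD was larger among tumours than among livers for 26 of 31 members and for 58.0% of all genes.

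**Figure D3:**
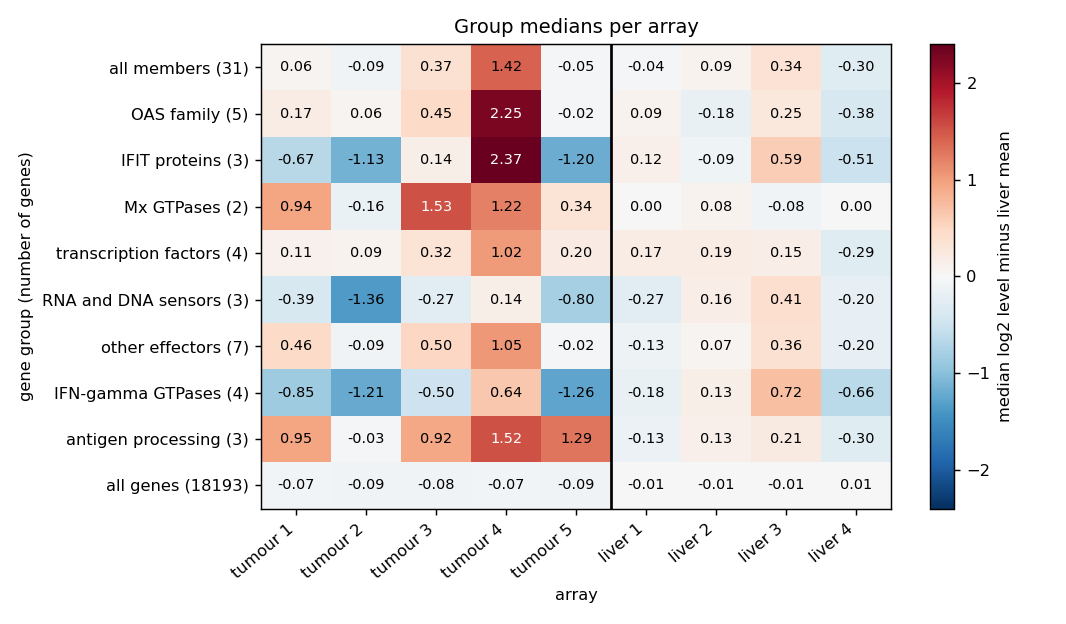
Median log2 level minus the liver mean for the interferon-stimulated genes grouped by role (rows, with the number of genes) on each array (columns), printed in each cell and shown as colour. The line separates tumours from livers. Tumour 4 is the highest tumour in every row of members except the Mx GTPases, where tumour 3 leads at 1.53, and all genes stay between -0.09 and 0.01.

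On the scale of log2 level minus the liver mean, the median of the 31 members was 0.06, -0.09, 0.37, 1.42 and -0.05 in tumours 1 to 5. In livers 1 to 4 it was -0.04, 0.09, 0.34 and -0.30. Only tumour 4 lay outside the range of the livers by more than 0.1, and tumours 1, 2 and 5 lay within it. At least 2-fold above the liver mean were 18 members in tumour 4, 8 in tumour 1, 8 in tumour 3, 7 in tumour 5 and 2 in tumour 2. At least 2-fold below it were 6 in tumour 2, 5 in tumour 5 and 3 in tumour 1, and none in tumours 3 and 4. Over all genes, 8.62%, 6.39%, 10.1%, 8.17% and 8.40% were 2-fold above the liver mean in tumours 1 to 5. In the same order, 7.08%, 4.73%, 6.07%, 5.73% and 5.28% were 2-fold below it. The 2 members above it in tumour 2 were 6.45% of the set, close to the share of all genes. The livers had an order too: liver 3 was the highest liver for 21 members and liver 4 the lowest for 23, where these were 22.2% and 27.4% of all genes.

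Genes outside the set were ranked in the same way from lists of the interferon pathway. Tumour 4 was the highest tumour for 27 of 41 other interferon-induced genes and for 13 of 25 interferon-gamma induced GTPase and antigen processing genes. It was the highest for 5 of 16 genes of nucleic acid sensing and for 2 of 16 interferon receptors, kinases and factors. Tumour 2 was the lowest for 19 of the 41, 15 of the 25, 5 of the 16 sensing genes and 8 of the 16 receptors, kinases and factors. The differences between these lists were not tested. Ifih1, Ddx58 and Zbp1, the sensors of the set itself, were all highest in tumour 4.

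**Figure D4:**
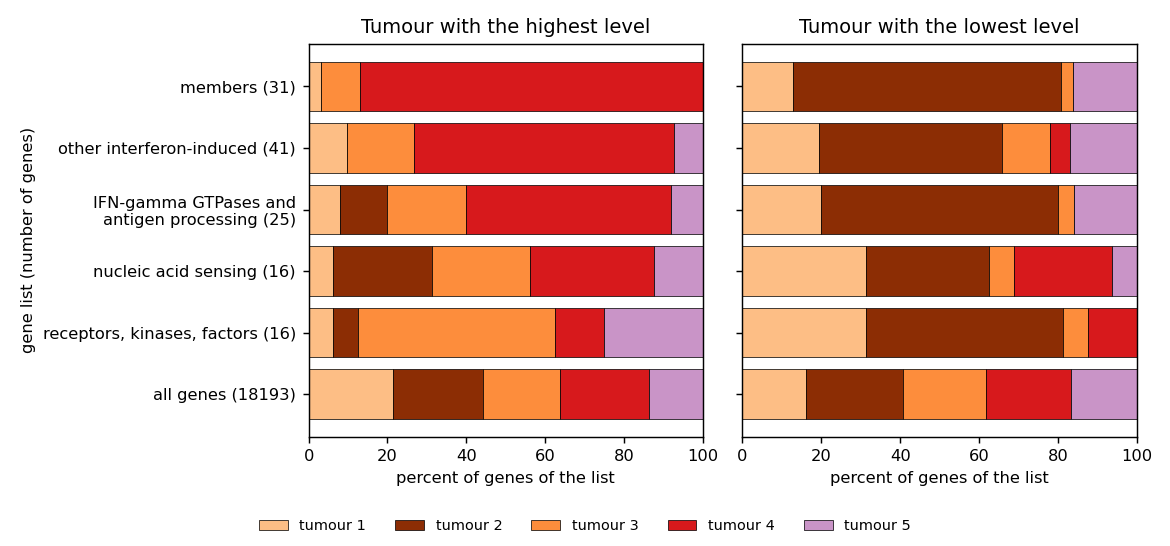
Share of genes for which each tumour had the highest (left) or the lowest (right) level of the 5 tumours, for the members, 4 other lists and all genes; the x axis is the percent of genes in the list. Tumour 4 (red) takes 27 of 31 members and 27 of 41 other interferon-induced genes as the highest, against 22.5% of all genes.

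Most of the measured ligands gave little signal. Of 19 listed interferon genes 10 were measured. Of these 1 rose and 1 fell, where 16.1% of all genes rose and 17.4% fell. Ifnb1, the gene of interferon-beta, read 5.33 ± 0.07 over the 5 tumours (SD) against 5.48 ± 0.09 over the 4 livers (SD), and Ifng 3.99 ± 0.04 against 4.16 ± 0.23, in the range of the TrpnX control. Neither passed as deposited. Both depended on the scaling, at -0.33 and -0.34 with a call on the 75th percentile and at 0.41 and 0.40 without one on housekeeping genes, and Ifng also passed without liver 2 (-0.27). Ifnz rose by 1.20 (SE 0.25, limma adjusted p = 0.00566) and passed in each of the 17 other settings. It read 5.97 to 7.31 in tumours and 5.23 to 5.78 in livers, without overlap. Ifna1 fell by 0.28 (limma adjusted p = 0.0494), a call lost without any single tumour or without liver 1, 3 or 4, at -0.22 to -0.31, and on housekeeping genes it differed by 0.29. Its probe set may also read related genes.

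Of 16 measured receptors, kinases and factors, 4 rose and none fell, where 16.1% of all genes rose and 17.4% fell. Ifngr1, a chain of the interferon-gamma receptor, rose by 1.28 (SE 0.27, limma adjusted p = 0.0061) and Ifnlr1, of the type III receptor, by 0.72 (SE 0.18, limma adjusted p = 0.0141). Ptpn2, a phosphatase that acts on JAK and STAT proteins, rose by 0.71 (SE 0.13, limma adjusted p = 0.00312). Il10rb, shared by the type III interferon and interleukin-10 receptors, read 10.36, 9.90, 12.98, 10.37 and 10.19 in tumours and 8.24 to 8.87 in livers. It rose by 2.08 (SE 0.57, limma adjusted p = 0.0213). Its call was lost without liver 1 (2.12) or liver 4 (1.93) and without the 3 arrays with low Xist (2.35), and with the mean of its probe sets it rose by 1.25.

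Tumour 3 was the highest tumour for 4 receptor genes that lie close together on chromosome 16. Beside Il10rb these were Ifnar1, at 11.97 in tumour 3 and 9.34 to 9.70 in the other tumours, Ifnar2, at 13.75 and 11.28 to 12.28, and Ifngr2, at 11.09 and 8.30 to 9.51. Ifnar1, Ifnar2 and Ifngr2 differed by 0.97, 0.76 and 1.25 without passing, although all 3 passed with arrays centred on housekeeping genes (1.53, 1.33 and 1.82). With the mean of probe sets Ifnar2 passed at 1.26 (limma adjusted p = 0.0312) and Ifngr2 read 0.67, and Ifngr2 also passed without the 3 arrays with low Xist (1.85). Without tumour 3 Ifnar1 (0.49, limma adjusted p = 0.0141) and Ifngr2 (0.84, limma adjusted p = 0.0366) passed, and Ifnar2 (0.35) did not. Of the other receptor genes, Ifngr1 was also highest in tumour 3 (10.85), and Ifnlr1 in tumour 5 (6.56, against 6.44 in tumour 4). Tumour 4 was the highest for 27 of 31 members. The part of receptor levels in the levels of the members was not tested.

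Among 16 genes of nucleic acid sensing 1 rose and 1 fell, beside 16.1% and 17.4% of all genes. Dhx58 (LGP2), a regulator of MDA5, read 9.29 in tumour 4 and 7.21 to 7.99 in the other tumours, all above the livers at 6.84 to 7.02. Its difference was 1.05 (SE 0.36, limma adjusted p = 0.0491), a call lost without tumour 1, 3 or 5 or any single liver, at 1.03 to 1.16, with the mean of its probe sets (0.57) and on the 75th percentile (0.88). Ifi204, a sensor of DNA, fell by 0.94 (SE 0.28, limma adjusted p = 0.0317), a call lost without tumour 1, 2 or 5, liver 2 or liver 3, or the 3 arrays with low Xist, at -0.74 to -0.98, and on housekeeping genes, at -0.37.

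Of the 41 other interferon-induced genes 11 rose and 4 fell, with a median difference of 0.06. Over all genes 16.1% rose and 17.4% fell, or 33.5% in either direction. Ifi27l2b, whose probe set may also read related genes, rose by 2.79 (SE 0.40, limma adjusted p = 0.00092), Ifi27 by 1.28 (SE 0.18, limma adjusted p = 0.00077) and Mov10, an RNA helicase, by 0.85 (SE 0.16, limma adjusted p = 0.00327; 0.40 with the mean of its probe sets). Ifi27l2b read 11.10, 10.12, 11.14, 11.40 and 10.32 in tumours and 7.74, 8.07, 9.10 and 7.18 in livers, again with tumour 4 highest, tumour 2 lowest and liver 3 and liver 4 at the ends of the livers. Ifitm1, whose product blocks viral entry, went the other way at 7.05, 7.75, 9.33, 8.63 and 7.84 in tumours against 9.93 to 11.03 in livers. It fell by 2.34 (SE 0.43, limma adjusted p = 0.00334). Samhd1, a nucleotide-degrading enzyme, and Sp100, of nuclear bodies, fell by 0.42 and 0.48 (limma adjusted p = 0.00814 and 0.0274), and with arrays centred on housekeeping genes they differed by 0.14 and 0.085. With the mean of its probe sets Samhd1 differed by -0.04. The call of Sp100 was also lost without tumour 5, any single liver or the 3 arrays with low Xist, at -0.32 to -0.51.

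Of the 25 further GTPase and antigen processing genes 5 rose and 3 fell, where 16.1% of all genes rose and 17.4% fell. The share called in either direction was near the 33.5% of all genes. Psme1, a subunit of the proteasome activator, rose by 0.94 (SE 0.13, limma adjusted p = 0.00084), Icam1, an adhesion molecule for leukocytes, by 1.14 (SE 0.17, limma adjusted p = 0.00099) and Tapbpl, a peptide editor, by 0.47 (SE 0.12, limma adjusted p = 0.0132). The call of Tapbpl was lost with arrays centred on the 75th percentile (0.29). Erap1, which trims peptides in the endoplasmic reticulum, fell by 1.28 (SE 0.16, limma adjusted p = 0.00042), or by 0.72 on housekeeping genes. The T cell inhibitor gene Cd274 fell by 0.59 (limma adjusted p = 0.0278) and the chemokine gene Cxcl9 by 1.84 (limma adjusted p = 0.0293). Both of these calls were lost without tumour 1 or 5, without liver 1, 2 or 3 and without the 3 arrays with low Xist, at -0.49 to -0.60 and -1.42 to -1.96. On housekeeping genes Cd274 differed by only -0.025 and did not pass.

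Markers of blood cells moved with the order of the arrays in part. None of 6 leukocyte markers passed between the groups, but their median relative to the liver mean was -1.56, -1.11, 0.87, 0.51 and -0.13 in tumours 1 to 5 and -0.91 in liver 4. The arrays with the lowest medians, tumours 1 and 2 and liver 4, were also the 3 with low Xist, and a link between the 2 was not tested. Their summed level, as log2, was 10.4 to 12.8 in tumours against 11.6 to 12.3 in livers, and no marker was at the level of the TrpnX control in every tumour. Ptprc (CD45), carried by all leukocytes, read 7.81, 8.18, 9.96, 9.96 and 9.14 in tumours and 9.61, 9.79, 9.82 and 8.24 in livers. Tumours 3 and 4 were alike in Ptprc, and tumour 1 was below tumour 2. Over the 6 markers, tumour 3 was the highest tumour for 3 and tumour 4 for 3. The medians of the 31 members in tumours 3 and 4 were 0.37 and 1.42.

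Of 12 Kupffer cell and macrophage markers 6 fell and none rose, with summed levels of 11.73 to 13.98 in tumours and 13.5 to 14.4 in livers. For this and the lists below, 17.4% of all genes fell and 16.1% rose. Tumour 4 was the highest tumour for 6 of the 12, tumour 3 for 4 and tumour 5 for 2. The Kupffer cell genes Clec4f and Vsig4 were among the 6, at 8.98 and 9.99 in tumour 4, and still below every liver. By contrast, 4 of the 12 markers were above every liver in each of tumours 3, 4 and 5. C1qb was among them each time, at 12.17, 11.66 and 11.49. Of all 18193 genes, 5547, 5198 and 5144 were above every liver in these tumours. T and NK cell markers had 1 of 11 lower and none higher, with summed levels of 9.64 to 10.1 in tumours and 9.59 to 9.95 in livers. None of 5 plasmacytoid dendritic cell markers passed, with summed levels of 8.38 to 8.81 and 8.5 to 8.75. Of the B cell, dendritic cell and neutrophil markers, 2 of 4, 1 of 5 and 0 of 5 fell and none rose. Tumour 4 was the highest tumour for 3 of 4 B cell markers. Tumour 3 was the highest for 8 of 11 T and NK cell, 3 of 5 plasmacytoid dendritic cell and 3 of 5 dendritic cell markers. For 4 of 5 neutrophil markers the highest was tumour 5. Among endothelial markers 4 of 8 fell, by up to 4.08 for Clec4g, and none rose. Among stellate cell markers 3 of 6 fell (Lrat, Reln and Dcn) and Col1a1 rose by 2.14. The part of these cells in the levels of interferon-stimulated genes was not tested.

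**Figure D5:**
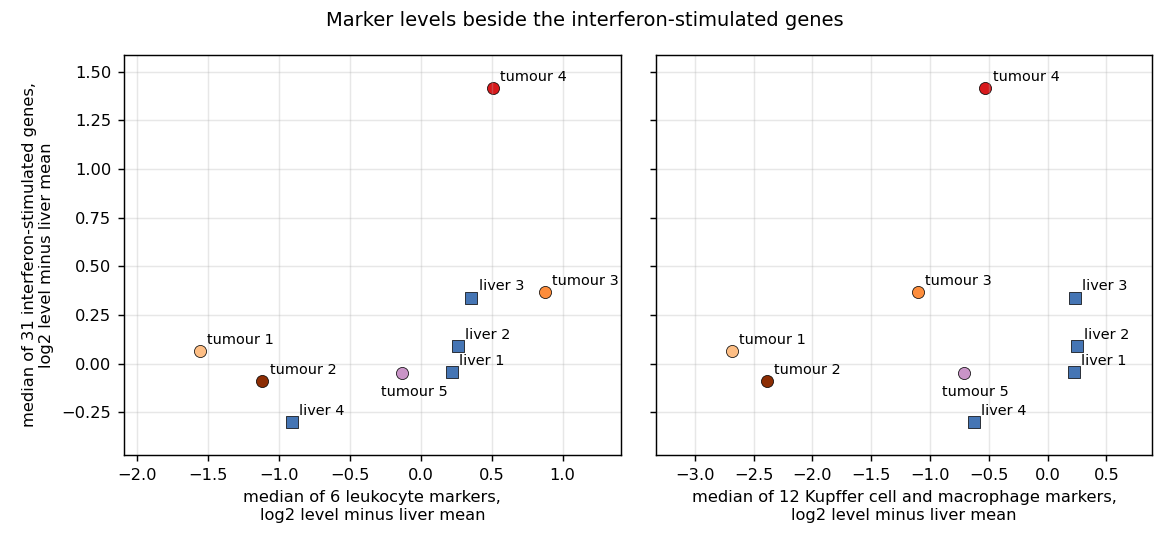
Median of the 31 interferon-stimulated genes (y axis) against the median of 6 leukocyte markers (left) and of 12 Kupffer cell and macrophage markers (right), all as log2 level minus the mean of the 4 livers; each point is 1 array. Tumour 4 is at 1.42 with leukocyte markers at 0.51, and tumour 3 is at 0.37 with leukocyte markers at 0.87.

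The calls of the members differed in how much they rested on single arrays. Oas1a, Usp18 and Trim30a passed in each of the 17 other settings that were fitted. Ifit2 lost its call without tumour 1, 3, 4 or 5 or liver 1, 2 or 4 (1.33 to 1.69). Mx1 lost it without tumour 1 or 4 or any single liver (1.53 to 1.72). Psmb8 lost it without tumour 1, 3, 4 or 5 or liver 1, 3 or 4 (0.99 to 1.20), Psmb9 without tumour 1, 3, 4 or 5 or liver 1, 2 or 4 (0.77 to 0.96) and on the 75th percentile (0.74), and Tap1 without liver 4 (0.84). Their differences stayed positive in all of these. Without tumour 4 the count was 4 higher and 4 lower of 31, the latter being Ifit3, Ifih1, Igtp and Irgm1. Of all 18193 genes, 2926 were higher and 2933 lower in that refit, so the members' shares were not above the background. Without the 3 arrays with low Xist (tumours 1 and 2 and liver 4) the same 8 members passed. Centring the arrays on housekeeping genes moved the median difference of all genes from -0.08 to 0.48. With it 14 of 31 members passed as higher, the 6 more being Oasl1, Stat2, Irf1, Irf9, Parp14 and Xaf1. Of all 18193 genes 8807 then passed as higher, against 2926 as deposited, so the members' share was not above the background.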

How the data were processed

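Each of the 9 samples was hybridised to 1 Affymetrix mouse expression array after 2 rounds of RNA amplification with a RiboAmp kit, per the labels' protocols. The deposited values are log2 expression levels per probe set, made by the authors with RMA per the submitters' processing notes. The RMA version, its settings and any batches are not stated here. RMA compresses differences of dim probe sets, and quantile normalisation hides general shifts.

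Of 45101 probe sets, 34945 named 1 gene in the platform annotation, 932 named several, 9160 named none, and 64 controls were left out. RefSeq (GRCm38.p6) gave 0 changed symbols. Where several probe sets read a gene, the brightest on average over the 9 arrays stood for it. Groups were taken from the sample titles and compared over all 18193 genes in R 4.3.3 by two-sided tests of limma 3.58.1 (functions lmFit and eBayes) without covariates, with Benjamini-Hochberg adjustment and a threshold of 0.05. The test was tested on simulated data. No set test was made. Plots and tables used Python 3.11.15, pandas 2.3.3, numpy 2.4.6 and matplotlib 3.10.9.

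The members, lists, rule for named genes (all members; from each other list the 3 smallest adjusted p per direction and genes whose role is explained) and alternatives were chosen with earlier results of these data known. The grouping of members by role was made after their values were seen.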

Additional observations from a re-analysis of the deposited data

Results flagged for a closer look

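In 8 of 64 groups of arrays (31 members and their median, in tumours and in livers) 1 array stood apart from the others of its group by Dixon's ratio, the gap to its nearest neighbour over the range of the group. The critical values were 0.829 for 4 livers and 0.710 for 5 tumours, and chance flags about 1 group in 20. Tumour 4 was far above the other tumours for Oasl2 (0.840), Mx2 (0.734) and Parp14 (0.792). Liver 4 was far below the other livers for Irf9 (0.872) and Oas2 (0.886), although the 4 livers of Oas2 spanned only 7.67 to 7.75. Liver 1 was low for Stat2 (0.859) and Ifi35 (0.970), and liver 2 for Oas3 (0.945), within 5.92 to 6.13.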

How the results depend on the processing

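The 31 members were refitted in 17 other settings, 527 values in all. Of these, 479 stayed on the same side of the threshold, 34 lost a call, 14 gained one and none reversed a call; 25 values without a call changed sign. Scaling mattered most: centring on 11 housekeeping genes, 7 of which rose, moved the median difference of all genes from -0.08 to 0.48 and gave 9406 genes and 14 higher members. Centring on the 75th percentile moved it to -0.26 and gave 10310 genes, 7 higher members and 2 lower ones (Ifih1 and Irgm1). The share of higher calls was 48.0% as deposited, 93.6% and 22.6%. On housekeeping centring the differences of Ifna1 (0.29), Samhd1 (0.14), Sp100 (0.085) and Jak1 (0.56) changed sign from negative to positive. Leaving out 1 array at a time gave 3 to 9 higher and 0 to 4 lower members, and 4632 to 6361 genes. The replicate numbers did not pair the samples (correlations of -0.13, -0.07, 0.18 and -0.12 across genes), and with the replicate number as a block 3552 genes and 3 members passed. The number of arrays and the narrow range of dim probe sets limit the precision.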
